A study of Homo sapiens with 13 samples.

Results

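The red cell membrane and heme synthesis genes considered here are 31 of the 58581 genes in the RNA-seq count table, taken by gene symbol from a fixed list. They comprise 7 genes of the membrane skeleton, band 3 and the glycophorins, 6 of blood group and other surface proteins, 5 of iron and erythropoietin reception and related erythroid proteins, 8 enzymes of heme synthesis, 3 mitochondrial carriers and 2 enzymes of heme breakdown. For each gene the level in 5 RNA-seq libraries, the difference between P95H and WT cells, and the windows in which binding by the splicing factor SRSF2 differed were examined. In all, 29 of the 31 passed the filter on low counts. ICAM4, the adhesion protein of the LW blood group, had no count in any library, and AHSP, the chaperone of free alpha globin, had at most 1 count per library.

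All samples were HEL cells, an established human erythroleukemia line grown in RPMI with serum, that carried a stable SRSF2 construct. HITS-CLIP, in which RNA crosslinked by ultraviolet light to a protein is recovered with it and sequenced, was made by immunoprecipitation through Flag from 4 samples with P95H SRSF2 and 4 with wild type SRSF2 (WT), all after 36 hours of doxycycline at 1 µg/ml. RNA depleted of rRNA was sequenced in 2 P95H and 2 WT samples after 48 hours of the same dose, and in 1 P95H sample labelled uninduced, which brings the series to 13 samples. P95H is a substitution recurrent in myelodysplastic syndromes. The labels call the replicates biological and say no more of how cultures were kept apart, so p-values measure the spread between these samples only. The promoter of the construct, whether a line is 1 clone, and whether the cells' own SRSF2 was altered are not stated in the labels.

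The red cell membrane rests on a skeleton of spectrin tetramers, which ankyrin ties to the anion exchanger band 3 and the EPB41 protein ties to actin and to glycophorin C. Heme is made partly in mitochondria and partly in the cytosol, from the committed step of aminolevulinate synthase to the insertion of iron by ferrochelatase, with iron brought in by the transferrin receptor and carried into mitochondria by mitoferrin. Most of these genes are switched on as erythroid precursors mature, many of them under the transcription factors GATA1 and KLF1.

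The promoters of 5 members are shown because these genes had some of the widest differences in level between libraries, as described further on, and they were picked after those values were seen. SLC4A1 and TFRC differed more between the replicate numbers than KEL and RHAG did, but are not shown. Neither is among the members listed below with a motif, so the 5 do not stand for all genes that differed widely. Sequences are the 250 bases before the RefSeq transcription start, build GRCh38.p14, written 5′ to 3′ on the strand of the gene. Capitals mark the letters AGATAA or TGATAA, or their reverse complements TTATCT or TTATCA, which GATA factors can bind. The search for them was also chosen after values were seen.
AQP1, chr7:30911603-30911852, plus strand: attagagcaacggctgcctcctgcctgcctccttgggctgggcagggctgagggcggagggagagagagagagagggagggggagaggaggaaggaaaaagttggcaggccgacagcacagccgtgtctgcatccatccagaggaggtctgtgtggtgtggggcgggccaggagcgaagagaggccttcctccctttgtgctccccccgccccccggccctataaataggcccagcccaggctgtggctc
RHAG, chr6:49636840-49637089, minus strand: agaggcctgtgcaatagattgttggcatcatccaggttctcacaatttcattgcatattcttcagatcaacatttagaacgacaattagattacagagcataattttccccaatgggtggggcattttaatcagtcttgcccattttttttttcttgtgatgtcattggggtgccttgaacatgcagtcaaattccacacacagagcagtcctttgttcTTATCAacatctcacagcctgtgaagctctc
KEL, chr7:142962364-142962613, minus strand: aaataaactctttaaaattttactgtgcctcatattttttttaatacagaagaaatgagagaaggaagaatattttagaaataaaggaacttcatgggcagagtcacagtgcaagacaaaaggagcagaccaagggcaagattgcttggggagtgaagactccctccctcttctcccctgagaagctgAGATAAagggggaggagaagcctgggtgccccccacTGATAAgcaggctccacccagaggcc
EPOR, chr19:11384315-11384564, minus strand: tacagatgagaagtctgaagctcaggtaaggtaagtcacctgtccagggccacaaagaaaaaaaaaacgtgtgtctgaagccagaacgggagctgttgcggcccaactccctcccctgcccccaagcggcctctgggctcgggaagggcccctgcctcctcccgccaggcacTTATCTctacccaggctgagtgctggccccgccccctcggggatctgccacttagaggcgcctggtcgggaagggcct
ALAS2, chrX:55030978-55031227, minus strand: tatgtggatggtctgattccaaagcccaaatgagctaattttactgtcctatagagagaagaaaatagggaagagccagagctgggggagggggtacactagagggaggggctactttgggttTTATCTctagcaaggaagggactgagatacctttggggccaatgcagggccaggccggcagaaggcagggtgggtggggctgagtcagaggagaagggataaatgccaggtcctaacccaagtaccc

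A motif began 31 bases before the start in RHAG, 62 and 26 bases before it in KEL, 78 in EPOR and 127 in ALAS2, and the AQP1 window held none. RefSeq had a promoter entry for 24 of the members, and 12 of these 24 held at least 1 of the motifs, on either strand, against 4770 of 27305 genes in the table (17.5%). The 12 were ALAS2, CPOX, EPB42, EPOR, GYPB, HEMGN, KEL, PPOX, RHAG, RHCE, RHD and SPTB. A match is a description of letters and was not set against any measure of binding.

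The RNA-seq libraries held 38052389 and 44618943 counts in P95H, 45005605 and 42112595 in WT and 37414093 in the uninduced sample. At these depths 3 counts equal 0.0667 to 0.0802 CPM, the count scaled by the library total. Levels below are CPM scaled by TMM, which corrects for the makeup of each library. CPM are not divided by transcript length, so levels are compared between libraries and not between genes. Libraries with the same replicate number resembled each other across genotypes. Mitochondrially encoded protein genes took 1.38% of counts in P95H replicate 1 and 1.38% in WT replicate 1, but 4.30% in P95H replicate 2, 4.50% in WT replicate 2 and 4.14% in the uninduced sample. Differences are therefore also given within each replicate number and from a fit with the number as a term.

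The erythroid label of the line was checked against marker genes. GATA1 stood at 123.3 to 159.9 CPM over the 5 libraries, TAL1 at 373.9 to 462.4 CPM and KLF1 at 56.8 to 78.9 CPM. The fetal globin HBG2 stood at 47.5 to 126.8 CPM. Its near copy HBG1 stood at 3.88 to 8.41 CPM. The gene entry of HBG2 runs from 5248274 to 5645789 on chromosome 11 and overlaps that of HBG1 on the same strand, so both counts are uncertain. The alpha globin genes HBA1 and HBA2, also near-identical copies, stood at 1.92 to 7.46 CPM and at no more than 0.16 CPM, and the embryonic globin HBZ at 0.50 to 2.67 CPM. Other genes of hemoglobin-making cells were low, with AHSP at no more than 0.02 CPM and SLC4A1, the gene of band 3, at 0.10 to 1.36 CPM. Megakaryocyte and platelet markers were uneven, with ITGA2B at 507.0 to 806.4 CPM and THBS1 at 1132 to 5071 CPM. PPBP stood at 4.90 to 7.14 CPM, PF4 at no more than 0.05 CPM, and GP1BB had no count in any library. The other markers of this list lay between PPBP and ITGA2B. The 9 myeloid markers together reached 12.3 to 18.8 CPM and the 7 lymphoid markers 4.41 to 7.34 CPM.

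**Figure D1:**
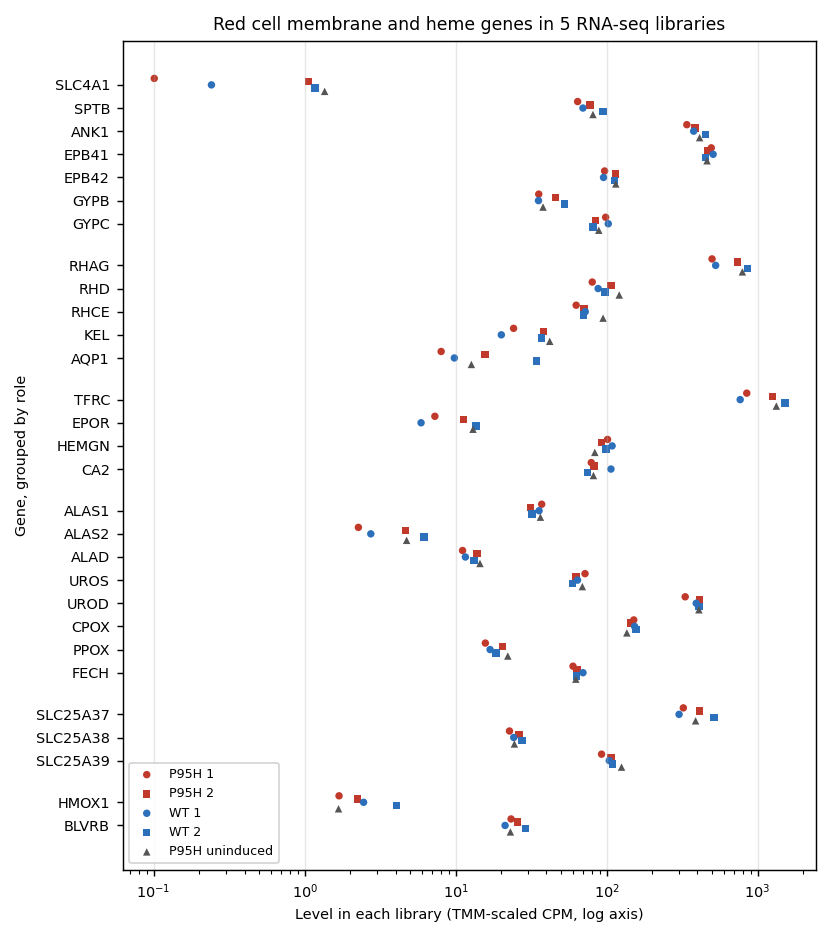
Level of each of the 29 measured members in the 5 RNA-seq libraries, as TMM-scaled CPM on a log axis, with 1 row per gene and genes grouped by role. Circles are libraries numbered 1, squares libraries numbered 2 and the triangle the uninduced library; TFRC reached 1517 CPM, while SLC4A1 stayed at or below 1.36 CPM.

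The first comparison is of cells with mutant SRSF2 against cells with the normal factor. No member passed edgeR's quasi-likelihood test on group alone (Benjamini-Hochberg adjusted p under 0.05), where 0 of 22007 genes passed (0% called, 227 at an unadjusted p under 0.05, and 0 by DESeq2). No member had an unadjusted p under 0.05 in that fit. With the replicate number as a term, 84 of 22007 genes passed (0.382%), and among them was 1 of the 29 members, the water channel AQP1, which was lower in P95H. The fitted log2 differences were positive for 9 members and negative for 20 on group alone, with a median of -0.08 beside 0.00 over all genes tested. Their median was -0.09 between the libraries numbered 1 and -0.06 between those numbered 2. Lower levels in P95H within both numbers were found for 11 of 29 members (37.9%, against 28.2% of all genes tested), and higher levels within both for 3 (10.3%, against 26.2%). The median over members on group alone was 0.03 without P95H replicate 1 and 0.07 without WT replicate 2, so its sign depended on which libraries entered. Each of these fits leaves the replicate numbers unequal between the genotypes, so the difference between numbers enters the median. With the number as a term and all 4 libraries, the median over members was -0.08. Since these are bulk RNA samples, fewer cells of a type and less RNA per cell cannot be told apart.

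**Figure D2:**
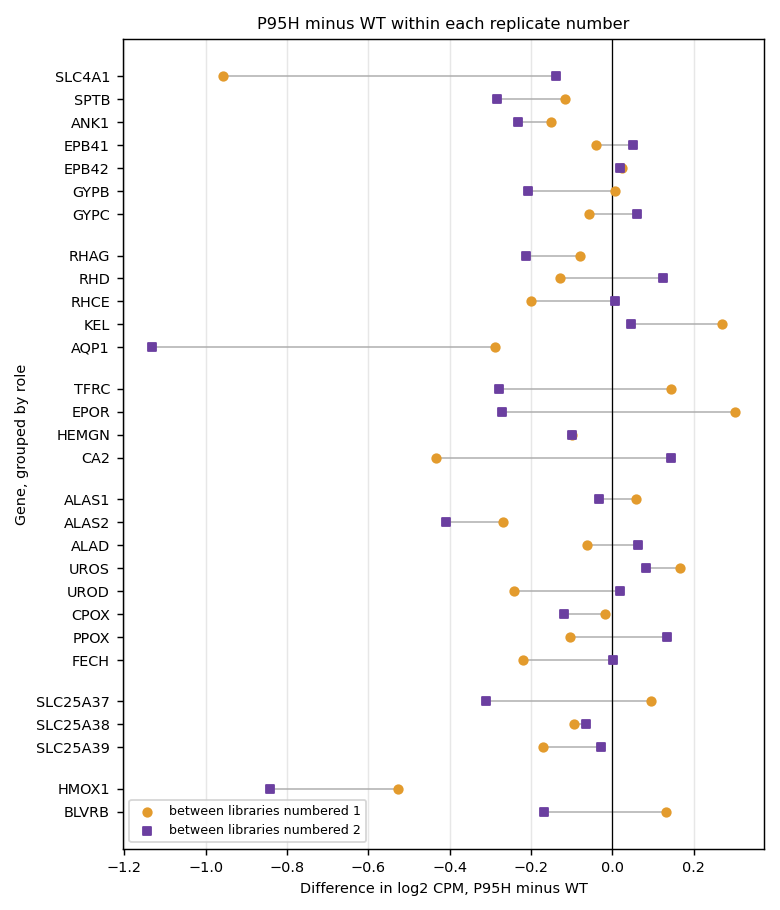
Difference in log2 CPM, P95H minus WT, between the libraries numbered 1 (circles) and between those numbered 2 (squares), with 1 row per member and a line joining its 2 values. AQP1 and HMOX1 lie to the left in both, at -0.29 and -1.13 for AQP1 and at -0.53 and -0.84 for HMOX1, while most members lie close to 0.

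Among surface proteins, AQP1, which lets water through the red cell membrane and carries the Colton blood group, had 8.02 and 15.7 CPM in P95H, against 9.81 and 34.4 CPM in WT and 12.7 CPM in the uninduced sample. WT replicate 2 stood highest by far, and the groups overlapped, since P95H replicate 2 lay above WT replicate 1. The difference in log2 CPM was -0.29 between libraries numbered 1 and -1.13 between those numbered 2. With the number as a term AQP1 fell by 0.74 on the log2 scale (SE 0.13, edgeR adjusted p = 0.00217), against -0.88 (SE 0.58, edgeR adjusted p = 0.9999) on group alone. The SE of 0.13 draws on a spread shared over genes, and the differences of -0.29 and -1.13 lay much further apart than that. The adjusted p of 0.00217 therefore does not measure how well the 2 differences of AQP1 matched. Without WT replicate 2 the value on group alone was 0.27, and without WT replicate 1 it was -1.52. Both of these fits leave the replicate numbers unequal between the genotypes, so the difference between numbers enters both values. Megakaryocyte and platelet markers moved in the same fit, where ITGB3, TUBB1 and THBS1, 3 of the 10 tested, passed and were lower in P95H. The other 7 tested did not pass, and 3 of the 10 were higher in P95H within both numbers, GP1BA at 0.34 log2 in that fit, SELP at 0.24 and ITGA2B at 0.14. The list of 12 genes summed to 1927 and 3852 CPM in P95H, against 2476 and 6022 CPM in WT, with GP1BB and PF4 at 0 in all 4 libraries. Without THBS1 the sums were 794.4 and 950.7 CPM in P95H, against 854.6 and 950.9 CPM in WT, so THBS1 made most of the gap. The part of this list in the AQP1 result was not tested.

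The other surface genes gave no call between the genotypes. RHAG, the Rh-associated glycoprotein that the Rh complex needs to reach the membrane, had 499.6 and 739.5 CPM in P95H, against 527.9 and 856.3 CPM in WT and 793.5 CPM in the uninduced sample. RHD, the D antigen protein, had 80.4 and 106.7 CPM in P95H, against 87.9 and 97.9 CPM in WT and 121.3 CPM in the uninduced sample. RHCE, which carries the C and E antigens, had 62.9 and 70.8 CPM in P95H, against 72.2 and 70.4 CPM in WT and 94.8 CPM in the uninduced sample. In all 3 the range of P95H overlapped that of WT. KEL, the Kell blood group endopeptidase, had 24.2 and 38.1 CPM in P95H, against 20.1 and 36.9 CPM in WT and 42.0 CPM in the uninduced sample. KEL was higher in P95H within both numbers, by 0.27 and 0.05 in log2 CPM, without passing edgeR's test with the number as a term (0.17, SE 0.09, edgeR adjusted p = 0.671). RHD and RHCE are near-identical copies, and how reads that fit both were counted is not stated in the labels. RHD also overlaps RSRP1 on the opposite strand, which had 149% of its mean level, and RHCE overlaps TMEM50A likewise, with 235%. Whether counting used strand is not stated, so both values are uncertain.

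No gene of the membrane skeleton passed between the genotypes in either fit. SPTB, erythroid beta spectrin, had 64.3 and 77.7 CPM in P95H, against 69.8 and 94.6 CPM in WT and 81.2 CPM in the uninduced sample. ANK1, the ankyrin that anchors spectrin, had 340.1 and 385.3 CPM in P95H, against 377.5 and 452.5 CPM in WT and 413.4 CPM in the uninduced sample. Both were lower in P95H within each number, SPTB by -0.12 and -0.28 and ANK1 by -0.15 and -0.23 in log2 CPM, and both had an unadjusted p of 0.02 with the number as a term. Neither passed after adjustment (edgeR adjusted p = 0.483 for SPTB and 0.476 for ANK1). EPB41, the link of spectrin to actin, had 493.7 and 470.5 CPM in P95H, against 507.9 and 454.0 CPM in WT and 462.7 CPM in the uninduced sample. EPB42, which binds band 3 and ankyrin, had 97.0 and 114.3 CPM in P95H, against 95.5 and 112.9 CPM in WT and 115.1 CPM in the uninduced sample. These 2 genes had the same order of libraries in both genotypes, with fitted differences of 0.02 and 0.03 log2 (SE 0.12 and 0.13). On the opposite strand EPB42 overlaps CCNDBP1, which had 50.6% of its mean level, and SPTB overlaps PLEKHG3, which had 36%, so the counts of EPB42 and SPTB are uncertain too. GYPC, glycophorin C, had 98.6 and 84.8 CPM in P95H, against 102.6 and 81.3 CPM in WT and 88.8 CPM in the uninduced sample. GYPB, glycophorin B, had 35.5 and 45.7 CPM in P95H, against 35.4 and 52.8 CPM in WT and 38.0 CPM in the uninduced sample, but it has near-identical copies in the genome and its counts are uncertain. SLC4A1 had 4 and 47 counts in P95H, against 11 and 47 in WT and 51 in the uninduced sample, or 0.10 and 1.06 CPM in P95H against 0.24 and 1.17 CPM in WT. Band 3 transcripts were thus few in every library, and fewest in those numbered 1.

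Of the receptor group, TFRC, the transferrin receptor that brings iron into the cell, had 848.3 and 1251 CPM in P95H, against 767.3 and 1517 CPM in WT and 1332 CPM in the uninduced sample. EPOR, the erythropoietin receptor, had 7.29 and 11.3 CPM in P95H, against 5.90 and 13.6 CPM in WT and 13.0 CPM in the uninduced sample. In both genes P95H was higher between libraries numbered 1 and lower between those numbered 2. HEMGN, the erythroid nuclear protein hemogen, had 101.5 and 92.4 CPM in P95H, against 108.8 and 98.9 CPM in WT and 83.6 CPM in the uninduced sample, with a difference of -0.10 log2 CPM within each number. CA2, the cytosolic carbonic anhydrase of red cells, ranged from 79.2 to 82.4 CPM in P95H and from 74.6 to 106.9 CPM in WT.

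The heme synthesis enzymes gave no call. ALAS2, the erythroid form of the enzyme that commits glycine to heme, had 2.27 and 4.65 CPM in P95H, against 2.74 and 6.19 CPM in WT and 4.74 CPM in the uninduced sample. Its log2 CPM was lower in P95H by -0.27 and -0.41 within the numbers, but with the number as a term it did not pass (-0.34, SE 0.19, edgeR adjusted p = 0.662). Its gene overlaps APEX2 on the opposite strand, which had 803% of its mean level and 31.8 to 34.2 CPM over the libraries, so reads of APEX2 could make part of the ALAS2 count if strand was not used. ALAS1, the form used in all tissues, ranged from 31.4 to 37.2 CPM in P95H and from 32.2 to 35.7 CPM in WT. UROD, the decarboxylase of uroporphyrinogen, had 331.7 and 413.1 CPM in P95H, against 392.5 and 408.1 CPM in WT and 408.9 CPM in the uninduced sample. CPOX, the oxidase of coproporphyrinogen, had 151.4 and 144.4 CPM in P95H, against 153.3 and 156.9 CPM in WT and 136.2 CPM in the uninduced sample. Both P95H libraries of CPOX lay below both WT libraries, by -0.02 and -0.12 in log2 CPM within the numbers. UROS, the synthase of uroporphyrinogen, was higher in P95H within both numbers, by 0.17 and 0.08, without passing (0.14, SE 0.08 with the number as a term, edgeR adjusted p = 0.691). PPOX, the oxidase of protoporphyrinogen, had 15.7 and 20.4 CPM in P95H, against 16.9 and 18.6 CPM in WT and 22.2 CPM in the uninduced sample. PPOX overlaps B4GALT3 on the opposite strand, which had 245% of its mean level, and CPOX overlaps CLDND1 on the same strand, which had 35.3%, so both counts are uncertain. ALAD, which joins aminolevulinate into porphobilinogen, ranged from 11.1 to 13.9 CPM in P95H and from 11.6 to 13.3 CPM in WT, and FECH, ferrochelatase, from 59.9 to 63.5 CPM in P95H and from 63.5 to 69.8 CPM in WT. Fitted differences of the 8 enzymes on group alone ran from -0.35 for ALAS2 to 0.14 for UROS, with 4 positive and 4 negative.

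SLC25A37, mitoferrin, which carries iron into mitochondria, had 322.4 and 414.2 CPM in P95H, against 302.1 and 513.7 CPM in WT and 388.6 CPM in the uninduced sample. The groups overlapped, and WT replicate 2 was the highest library. SLC25A39, which carries glutathione into mitochondria, had 92.6 and 107.1 CPM in P95H, against 104.2 and 109.2 CPM in WT and 125.6 CPM in the uninduced sample. SLC25A38, a glycine carrier, ranged from 22.8 to 26.4 CPM in P95H and from 24.3 to 27.6 CPM in WT. All 3 carriers had a negative fitted difference on group alone, between -0.13 and -0.06 log2, and none passed. The heme-degrading enzyme HMOX1 had 1.69 and 2.24 CPM in P95H, against 2.46 and 4.04 CPM in WT and 1.68 CPM in the uninduced sample. Both P95H libraries lay below both WT libraries, and the uninduced sample stood at the level of P95H replicate 1. The fitted difference was -0.71 (SE 0.34, edgeR adjusted p = 0.9999) on group alone and -0.70 (SE 0.22, unadjusted p = 0.00319, edgeR adjusted p = 0.232) with the number as a term. BLVRB, a biliverdin reductase, had 23.3 and 25.8 CPM in P95H, against 21.3 and 29.0 CPM in WT and 23.1 CPM in the uninduced sample. HMOX1 and CPOX were the members whose P95H libraries both lay below both WT libraries, 2 of 29 (6.9%, against 12.5% of all genes tested), and no member lay above in the same way (12% of all genes tested).

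**Figure D3:**
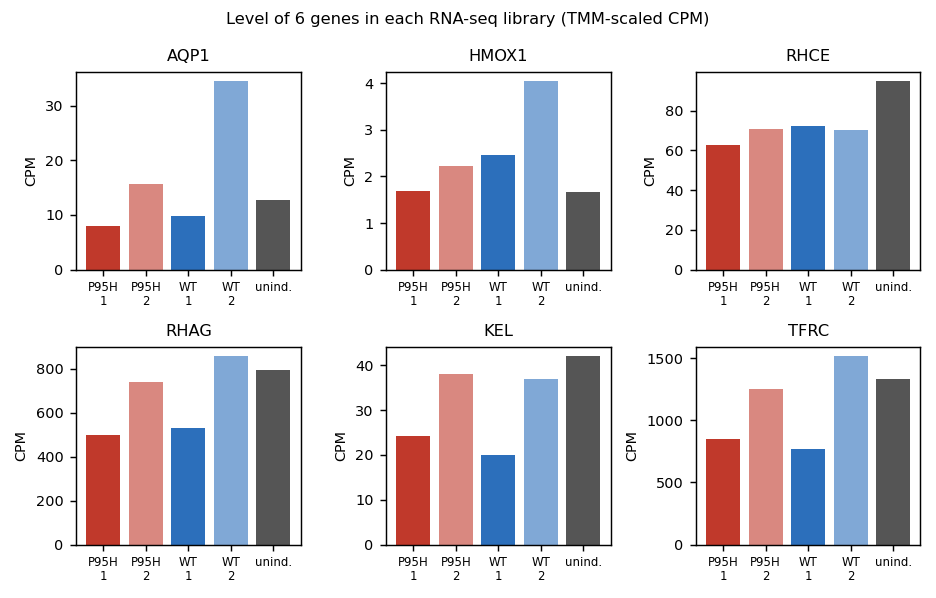
Level of 6 members in each RNA-seq library as bars of TMM-scaled CPM from 0, with P95H in red, WT in blue and the uninduced P95H library in grey, 1 bar per library and no error bars. The bar of WT replicate 2 is the tallest for AQP1 (34.4 CPM), HMOX1 (4.04 CPM), RHAG (856.3 CPM) and TFRC (1517 CPM), and that of the uninduced library for RHCE (94.8 CPM) and KEL (42.0 CPM).

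The widest differences among these genes ran between the replicate numbers, which are not a condition of the study. In a fit on genotype and number, 14 of 29 members were higher in the libraries numbered 2 than in those numbered 1 (48.3%, against 10.3% of 22007 genes tested) and 1 was lower (3.45%, against 8.87%). SLC4A1 differed most, higher by 2.67 log2 (SE 0.43, edgeR adjusted p = 1.614e-05), though the libraries numbered 1 held 4 and 11 of its counts. AQP1 was higher by 1.40 log2 (SE 0.13, edgeR adjusted p = 2.764e-10) and ALAS2 by 1.09 (SE 0.19, edgeR adjusted p = 3.972e-05). Then came EPOR at 0.90, TFRC at 0.76, KEL at 0.75, RHAG at 0.62, SLC25A37 at 0.55 and GYPB at 0.46 log2. SPTB at 0.34, BLVRB at 0.28, RHD at 0.27, EPB42 at 0.22 and ANK1 at 0.21 log2 passed with smaller values. GYPC was the member that was lower, at -0.29 log2 (SE 0.08, edgeR adjusted p = 0.00614). By role, 5 of 7 skeleton genes, 4 of 5 measured surface genes, 2 of 4 measured genes of the receptor group, 1 of 8 heme synthesis enzymes, 1 of 3 carriers and 1 of 2 breakdown enzymes were higher. Of the heme enzymes only ALAS2 passed, while ALAS1, UROS, CPOX and FECH had negative values between -0.21 and -0.03 log2. DESeq2 called 8 members in the same comparison, all higher, without GYPC (adjusted p = 0.0708) and with no adjusted p for SLC4A1.

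The summed level of the members was 4918 CPM in P95H replicate 2 and 5491 CPM in WT replicate 2, against 3985 CPM in P95H replicate 1 and 4097 CPM in WT replicate 1, with 5094 CPM in the uninduced sample. Erythroid markers outside the members moved with them, with 6 of 8 tested higher in the libraries numbered 2. Among them was HBG2, whose count is uncertain, at 122.3 CPM in P95H replicate 2 against 47.5 CPM in P95H replicate 1. The 9 markers summed to 984.8 and 1123 CPM in P95H and WT replicate 2, against 799.1 and 874.3 CPM in P95H and WT replicate 1. Of the 10 megakaryocyte and platelet markers tested, 4 were higher and 1 was lower in the libraries numbered 2. The share of mitochondrially encoded counts was also higher there, as given above, and its part in these differences was not tested. The median absolute difference of a member was 0.13 log2 CPM between P95H and WT and 0.27 between the replicate numbers, beside 0.17 and 0.26 over all genes tested.

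**Figure D4:**
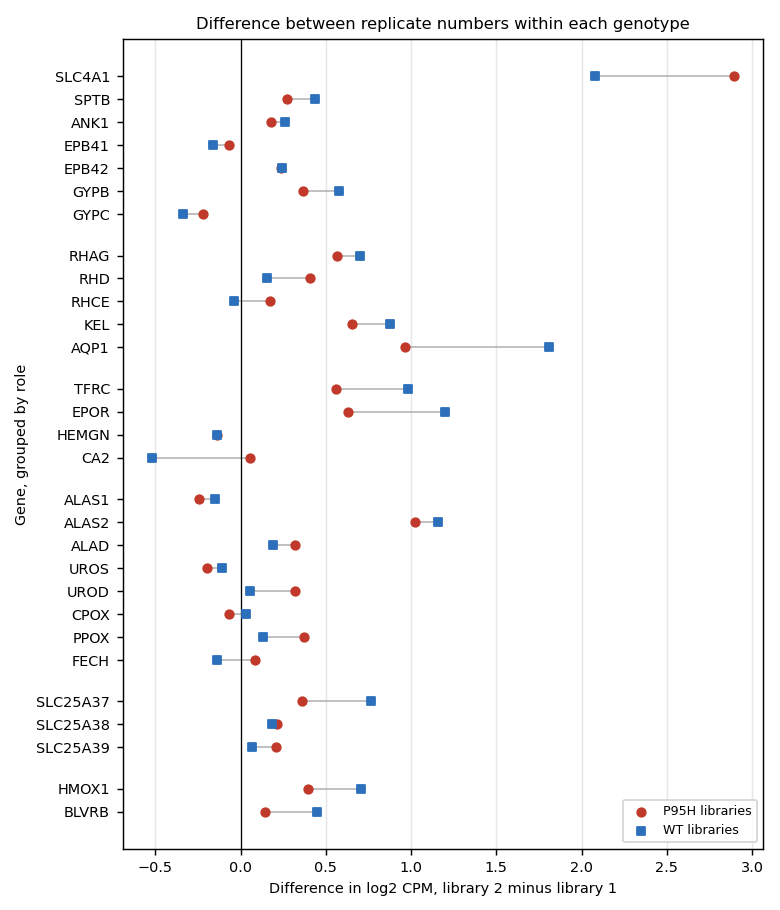
Difference in log2 CPM, library 2 minus library 1, within P95H (circles) and within WT (squares), with 1 row per member. Most points lie right of 0, farthest for SLC4A1 (2.90 in P95H and 2.08 in WT), AQP1 (0.96 and 1.81) and ALAS2 (1.02 and 1.16), while EPB41, GYPC, HEMGN, ALAS1 and UROS lie left of 0 in both genotypes.

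Doxycycline-treated P95H cells were set against the single uninduced P95H sample, where the 2 replicated groups supply the spread. On group alone no member passed, as no gene did (0% of 23970 called by edgeR, 818 at an unadjusted p under 0.05 including 2 members, and 7 genes but no member by DESeq2). The median over members was -0.13 log2, beside 0.00 over all genes tested, with 21 of 29 negative. P95H replicate 1 stood apart from the uninduced sample by a median of -0.28 log2 CPM over members, and P95H replicate 2 by -0.06. All 4 libraries with doxycycline lay below the uninduced one for 8 of 29 members (27.6%, against 25.5% of all genes tested) and above it for 3 (10.3%, against 21.7%). The 8 were SLC4A1, EPB42, RHD, RHCE, KEL, ALAD, PPOX and SLC25A39, and the 3 were HEMGN, CPOX and HMOX1. This comparison uses the same P95H libraries as that with WT.

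RHCE, among these, had 62.9 and 70.8 CPM in P95H with doxycycline, against 94.8 CPM uninduced. Its difference was -0.51 log2 on group alone (edgeR adjusted p = 0.972). With the replicate number as a term, and the uninduced sample placed with the libraries numbered 2 as its mitochondrial share would have it, RHCE fell by 0.48 on the log2 scale (SE 0.11, edgeR adjusted p = 0.00066), and with it placed among those numbered 1 the value was -0.53 (edgeR adjusted p = 1.999e-05). The labels do not place it with either number. The neighbour TMEM50A, which overlaps RHCE on the other strand, had 156.2 and 177.9 CPM in P95H against 188.2 CPM uninduced. In the first placing 866 of 23970 genes passed (3.61%), and the members among them were RHCE and AQP1. AQP1 was higher with doxycycline by 0.50 log2 there (edgeR adjusted p = 0.0414), and stood at -0.10 on group alone. In the second placing 3685 genes passed (15.4%), with 14 members lower and HEMGN higher, and AQP1 at -0.90 log2. The direction of AQP1 against the uninduced sample thus depended on the placing, while RHCE was lower in both.

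Further genes of the same pathways were read in the same fits. Of 28 further red cell membrane genes, 27 were tested between P95H and WT and none passed in either fit. Their median was -0.10 log2 on group alone, with 23 of 27 negative. Of 27 further heme and iron genes none passed in either fit, the median was -0.09 log2, and 23 of 27 were negative. In 10 of these 27 (37.0%) both P95H libraries lay below both WT libraries, against 12.5% of all genes tested, and in none did both lie above. Of the 27 membrane genes tested, 0 lay below in this way. In 1 of them (3.7%) both P95H libraries lay above, against 12% of all genes tested. Between the replicate numbers, 10.3% of all 22007 genes tested were higher in the libraries numbered 2 and 8.87% lower. Of the 27 membrane genes, 14 were higher and none was lower. Among the 14 were ERMAP, the Scianna blood group protein, at 0.96 log2, DMTN, the actin-bundling dematin, at 0.94 and AQP3, a water and glycerol channel, at 0.67. Of the 27 heme and iron genes, 7 were higher and none lower, with the porphyrin exporter ABCG2 at 0.97, the iron-sulfur scaffold ISCU at 0.54, the ferrireductase STEAP3 at 0.41 and the transferrin receptor TFR2 at 0.37 log2. In P95H with doxycycline against the uninduced sample placed with the libraries numbered 2, 3.61% of all 23970 genes tested passed in either direction. Of 28 membrane genes 1 was higher there, DMTN at 0.41 log2. The 3 that were lower were the mechanosensitive channel PIEZO1 at -0.55, the spectrin SPTAN1 at -0.39 and the surface protein BSG at -0.34. Of the 27 heme and iron genes none was higher and 4 were lower, the outer mitochondrial membrane protein TSPO at -0.61, the heme exporter FLVCR1 at -0.43, STEAP3 at -0.43 and TFR2 at -0.34. With that sample placed among the libraries numbered 1, 1 membrane gene was higher and 18 lower, and 9 heme and iron genes were lower. Over all genes tested, 15.4% passed in either direction in that placing.

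Binding by SRSF2 was read from the authors' deposited table of HITS-CLIP windows of about 20 bases. It holds 8100 distinct windows, all with an adjusted p of at most 0.05 in the authors' comparison and at least 2-fold apart between P95H and WT, so windows that did not differ are not in it. Members held 11 windows in 6 genes, SLC25A37, RHAG, EPB41, CPOX, ANK1 and HEMGN, or 6 of the 29 members tested in the RNA-seq (20.7%), beside 9.69% of all genes tested there. Of the 11 windows 9 were higher in P95H (81.8%), against 22.3% of all windows in the authors' deposited table. Of these 9, 5 lay in SLC25A37. Merged where they overlap, the members' windows make 11 regions, while the 8100 windows make 3742. The 22.3% thus counts many overlapping windows, and the share over regions was not computed. The 2 that were lower lay in ANK1 and HEMGN.

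In the authors' deposited table SLC25A37 held 5 windows on the plus strand of chromosome 8 (hg38), all higher in P95H and all within the stretch from 81.1% to 93.3% of the gene's length. The window at 23567509 to 23567529 had the highest signal, 4.30 ± 4.08 CPM in P95H against 0.40 ± 0.27 CPM in WT (the authors' mean ± SEM), with a log2 change of 3.08 and an FDR of 7.08e-09 in the authors' deposited table. The authors' deposited table gave the window at 23566666 to 23566686 2.83 ± 2.79 CPM in P95H against 0.17 ± 0.11 CPM in WT, and that at 23568554 to 23568574 2.54 ± 2.33 CPM in P95H against 0.25 ± 0.12 CPM in WT. The other two in the authors' deposited table, at 23572324 to 23572345 and 23567106 to 23567127, had 1.38 ± 1.06 and 1.07 ± 1.04 CPM in P95H, against 0.24 ± 0.19 and 0.05 ± 0.03 CPM in WT. The table assigns 3 of the 5 to transcripts classed as retained intron, 1 to a transcript of nonsense-mediated decay and 1 to a protein-coding transcript. In 4 of these windows the SEM was nearly as large as the mean in P95H. If the SEM is the SD over the square root of 4 samples, at least 97.4%, 94.5%, 92.2%, 87.6% and 68.5% of the P95H signal in the 5 windows, taken 5′ to 3′, came from 1 sample. That sample cannot be named from the authors' deposited table, and SLC25A37 RNA did not pass edgeR's test between the genotypes (-0.13 log2, SE 0.25, edgeR adjusted p = 0.9999).

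RHAG held 2 windows in the authors' deposited table, on the minus strand of chromosome 6, at 66.6% and 66.8% of the gene's length. The window at 49615667 to 49615687 had 1.74 ± 1.36 CPM in P95H against 0.13 ± 0.08 CPM in WT (log2 change 3.21, FDR 2.97e-07), in the authors' deposited table. The window at 49615704 to 49615724 had 0.66 ± 0.39 CPM in P95H against 0.07 ± 0.07 CPM in WT (log2 change 2.64, FDR 0.00146), also from the authors' deposited table. They lie next to each other and may share reads. EPB41 held a window on chromosome 1, 29118100 to 29118120, plus strand, near the end of the gene, with 1.25 ± 0.88 CPM in P95H against 0.16 ± 0.09 CPM in WT (log2 change 2.53, FDR 8.89e-05) in the authors' deposited table. The CPOX window in the authors' deposited table, on chromosome 3, 98591111 to 98591132, minus strand, lay 2591 bases from the gene's 5′ end and had 0.56 ± 0.33 CPM in P95H against 0.10 ± 0.10 CPM in WT (log2 change 2.09, FDR 0.00656). All 4 of these windows were higher in P95H, and at least 70.2%, 50.1%, 61.5% and 49.8% of their P95H signal came from 1 sample under the same reading of the SEM.

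The 2 windows lower in P95H were those of ANK1 and HEMGN. The ANK1 window in the authors' deposited table, on chromosome 8, 41695190 to 41695210, minus strand, had 0.42 ± 0.42 CPM in P95H against 1.81 ± 0.97 CPM in WT (log2 change -1.97, FDR 0.000801). The HEMGN window in the authors' deposited table, on chromosome 9, 97931205 to 97931225, minus strand, had 0.05 ± 0.02 CPM in P95H against 0.46 ± 0.42 CPM in WT (log2 change -3.13, FDR 0.00104). At least 46.2% of the WT signal in ANK1 and 84.7% of that in HEMGN came from 1 sample on the same reading. Over the members' 9 windows higher in P95H the median of this least share was 70.2%, beside 62.9% over all such windows in the authors' deposited table. RNA of the 6 genes did not pass edgeR's test between P95H and WT in either fit.

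**Figure D5:**
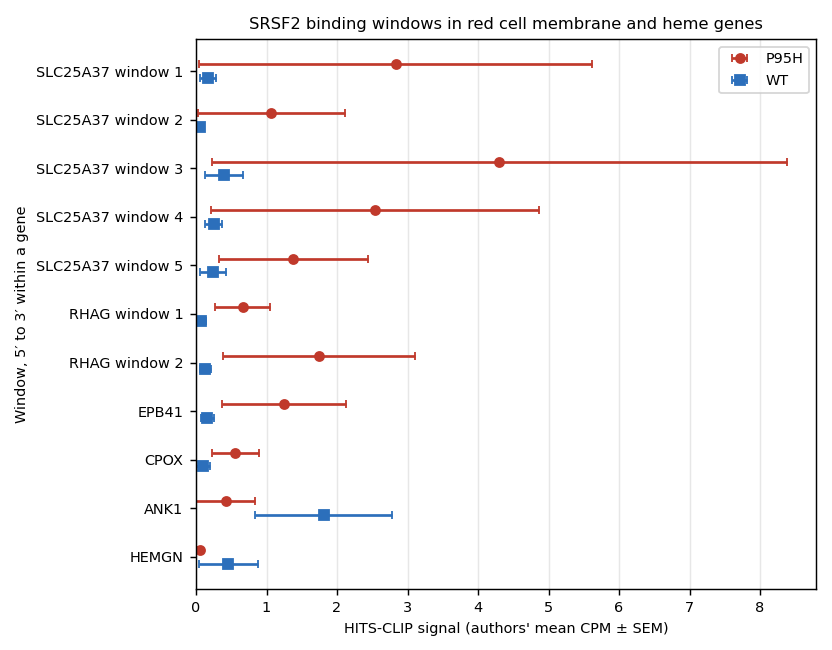
HITS-CLIP signal in the 11 windows of the members, as the authors' mean CPM with bars of ± 1 SEM over 4 samples, P95H as circles above WT as squares, with 1 row per window and windows of a gene ordered 5′ to 3′. The P95H bars of SLC25A37 reach from close to 0 to far above the mean, as in the window with 4.30 ± 4.08 CPM, and ANK1 and HEMGN are the rows where WT is higher.

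Among the companion genes, the authors' deposited table held 60 windows in 5 of the 28 further membrane genes, 6 higher (10.0%, against 22.3% of all windows) and 54 lower in P95H, most of them overlapping windows of TPM3 and SPTBN1. It held 10 windows in 5 of the 27 further heme and iron genes, 8 higher (80.0%, against 22.3% of all windows) and 2 lower in P95H. Many of these overlap, and merged they make 6 regions. Those higher lay in FTL, ISCU and PCBP2, and those lower in ABCB10 and FTH1. Which exon or intron a window falls in, and its sequence, were not analysed here.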

How the data were processed

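The deposited RNA-seq table holds unnormalized counts per Ensembl gene. STAR 2.5.3a, TopHat2 2.0.14, edgeR and build GRCh38.p3 appear in the submitters' processing notes with no role, and no source used here states the counting program or its strand setting. Strand-blind counting could add reads of overlapping genes, or lose reads that fit both genes, depending on the program. Per the file headers, the HITS-CLIP table gives the authors' log2 change, adjusted p-value (FDR) and mean CPM with SEM per genotype, each computed and deposited by the authors for windows that passed their thresholds. The table has 8324 entries, of which 224 repeat a window and were dropped.

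Tests on the counts used edgeR 4.0.16 under R 4.3.3 (filterByExpr, TMM, quasi-likelihood test, two-sided, Benjamini-Hochberg over all genes tested, threshold 0.05), with limma 3.58.1 loaded by it and DESeq2 1.42.0 as an alternative. A prior count of 2 was added for log2 CPM. The procedure was tested on simulated data. The simulations of P95H against WT held no difference between replicate numbers, so they cannot decide between the fits with and without the number. P95H against WT used 4 libraries, and the comparison with the uninduced sample used 5. The windows were read in Python 3.11.15 with pandas 2.3.3 and drawn with matplotlib 3.10.9. Alternatives covered scaling, filter, tool, replicate block and each library left out. The 3-count floor covers counting error only. The SE given with edgeR fits was derived from the fitted log2 change and the F value of the quasi-likelihood test. That test shares spread over genes, so the SE can be smaller than a gene's own spread. Promoters came from RefSeq, build GRCh38.p14.

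The members and gene lists were chosen with earlier results of these data known. Values in every library are given for members past the threshold in any fit, the 2 of each role with the highest mean CPM, the 6 with the largest differences of shared sign within the numbers, and those with a window. Up to 4 genes per companion list past the threshold are named, by size. Some genes that this rule takes are not reported here. Motifs planned for the windows were not searched, since no genome was used.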

Additional observations from a re-analysis of the deposited data

How the results depend on the processing

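Members at or under the 3-count floor (ICAM4, AHSP) cannot show a difference in these counts. ICAM4 overlaps CTD-2369P2.8 on the opposite strand, which had 0.77 to 2.48 CPM. How reads that fit both were counted is not stated, so the lack of ICAM4 counts is uncertain. In P95H against WT, no filter on low counts gave 15 genes called (2 higher, 13 lower) and 1 member, AQP1 (-0.88 log2, edgeR adjusted p = 0.0145); the replicate block gave 84 genes (41 higher, 43 lower) and 1 member, AQP1 (-0.74). Deviations of same-numbered libraries from their group means correlated at 0.535, over 2 numbers only, so the pairing is a hint from the data and not from the design. The members' median ran from -0.1957 to 0.06695 with each library left out. The lone sample of a group is assumed there to vary like the others. Without P95H replicate 1, 14 of 29 members changed sign, and 14 did so without WT replicate 2. With a library left out the replicate numbers are unequal between the genotypes, so the difference between numbers enters these values. Against the uninduced sample, DESeq2 called 7 genes, no filter 92, the replicate block 866 with that sample placed with replicate 2 and 3685 with replicate 1; members called were 2 and 15 in the 2 placings. The members' median there ran from -0.2796 to -0.0522 with a library left out and was -0.30 in the replicate block with replicate 1. AQP1 turned to 0.50 in the replicate block with replicate 2. Between replicate numbers DESeq2 called 8 members in place of 15, and no library could be left out there for want of residual degrees of freedom. The causes of these shifts were not tested. The 11 HITS-CLIP windows and 11 regions became 8 to 11 under stricter thresholds and other merging, with 7 to 9 of them higher in P95H.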
